A study of Homo sapiens with 4 samples.

Results

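The 7 genes described here code for the Ragulator complex (LAMTOR1, LAMTOR2, LAMTOR3, LAMTOR4 and LAMTOR5) and for the Rag GTPases RRAGA and RRAGC. They were chosen by symbol, with a minimum of 10 counts summed over the libraries. All 7 met it, among 9865 genes that did so and 19948 gene symbols in the table. Ragulator is a scaffold anchored in the lysosomal membrane by the lipid-modified LAMTOR1, which wraps around a LAMTOR2-LAMTOR3 pair and a LAMTOR4-LAMTOR5 pair. It holds a Rag heterodimer, RagA or RagB (RRAGA, RRAGB) with RagC or RagD (RRAGC, RRAGD), on the lysosome. When amino acids are plentiful the Rag heterodimer recruits mTORC1, the kinase complex whose activity governs translation of TOP mRNAs, which begin with a pyrimidine tract at the cap and encode ribosomal proteins and translation factors.

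The data are direct RNA nanopore counts from HEK293T, an established line of human embryonic kidney origin that carries the SV40 large T antigen. Every culture had received cycloheximide (100 ug/mL for 10 min), an elongation inhibitor that keeps ribosomes in place on the message. Lysate was layered on a sucrose gradient of 10% to 50%, and capped polyadenylated RNA was taken from a free, a monosome, a light polysome and a heavy polysome pool, 1 library each, with no genetic change or other drug in the labels. The study asks how mTOR and LARP1 set the poly(A) tails and ribosome loading of TOP mRNAs, and these libraries show the pools in which each mRNA lay.

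Library totals were 355509 counts (free), 1329334 (monosome), 1499401 (light polysome) and 1564531 (heavy polysome). Of 8 markers of the line, fixed as a list, 8 had a count and 7 had at least 30, with summed levels of 61.9 to 803 CPM (counts per 1000000 counts of the library). Of 10 markers of other cell types 3 had a count, and none had more than 4 over all libraries. With 1 library per pool there is no spread between replicates, so no p-value is given and all intervals are 95% intervals of counting error only. Pools are compared as library shares, since the labels do not say how much RNA each pool held, so a share can change through the other mRNAs of its pool.

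The first bases of the transcripts are shown because the study turns on the pyrimidine tract at the cap. RefSeq start windows (GRCh38.p14) were found for 6 of the 7 members; RRAGA had none. Each line runs from 10 bases before the annotated start to 20 bases from it, 5′ to 3′, and the capitals mark the first transcribed base and any pyrimidine run that begins there. EEF2, an elongation factor with a known TOP mRNA, stands last for contrast.
LAMTOR1, chr11:72103278-72103307, minus strand: gccgcgggtcAtgtgaccggaagggctcct
LAMTOR2, chr1:156054772-156054801, plus strand: tacaactcccAgggcgtcccggagcaggcc
LAMTOR4, chr7:100148908-100148937, plus strand: tgaccggggcCTgaagccggaagctaccta
LAMTOR5, chr1:110407675-110407704, minus strand: cgctcgcgtcAagtgactgaggcctgtggt
RRAGC, chr1:38859753-38859782, minus strand: ggggcgggccGgactgtggcggctgccggg
EEF2, chr19:3985444-3985473, minus strand: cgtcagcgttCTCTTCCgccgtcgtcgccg

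None of the members' annotated starts, including both starts listed for LAMTOR3 and for LAMTOR5, had the TOP motif, searched as a C at the first base that opens a run of at least 5 pyrimidines on the transcribed strand. LAMTOR4 came nearest, with a run of 2. Of 3 known TOP mRNAs searched in the same way, the motif was found in EEF2 and RPS6 but at none of the 3 starts listed for RPL32, so the search can miss a TOP mRNA. The motif was found in 5.91% of 8951 windows of genes with at least 30 counts. An annotated start can differ from the start used in these cells. The E-box CACGTG, the core of the element bound by the lysosomal regulators TFEB and TFE3 and identical on both strands, lay within the 300 bases around the start in 3 of the 6 members with a window. It was found in 10.1% of the windows of genes with at least 30 counts. That share counts windows and not genes. LAMTOR3 and LAMTOR5 had 2 windows each, all without a site. The E-box sites are shown in capitals.
LAMTOR1, chr11:72103451-72103468, minus strand: ccgcatCACGTGcttgcg
LAMTOR4, chr7:100148898-100148915, plus strand: tgcaagCACGTGaccggg
RRAGC, chr1:38859873-38859890, minus strand: ttccggCACGTGacgggg

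The members fall into short and longer coding sequences. In the principal transcripts of GENCODE release 29, on the same build as the counts (hg38), the Ragulator subunits had 161 codons (LAMTOR1), 125 (LAMTOR2), 124 (LAMTOR3), 99 (LAMTOR4) and 173 (LAMTOR5), against 313 for RRAGA and 399 for RRAGC. The median over tested genes was 398. Other coding transcripts of LAMTOR5 had as few as 79 codons, and the counts do not separate transcripts. RRAGA has 1 exon, as did 2.07% of 7340 tested genes with an annotated start codon. LAMTOR3 had the longest 3′ untranslated region of the 7, with 3658 nt against a median of 975.

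**Figure D1:**
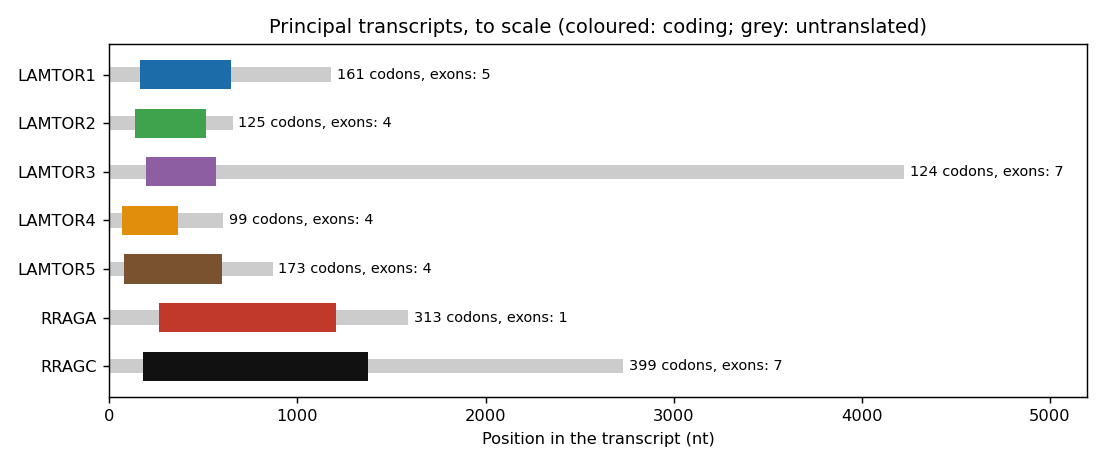
Principal transcripts of the 7 members drawn to scale in nucleotides, with the coding sequence coloured and untranslated regions grey. The 5 Ragulator transcripts have 99 to 173 codons, and RRAGA and RRAGC have 313 and 399.

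The start codons are shown with the 9 bases before and 3 after, since their context bears on initiation; the capitals mark the start codon. A purine stood at the third base before it in 7 of 7 members, and in 86.9% of the 7340 tested genes.
LAMTOR1: accccggccATGggg
LAMTOR2: accgtaggcATGctg
LAMTOR3: gggttcatcATGgcg
LAMTOR4: aagactgcgATGact
LAMTOR5: ggttccgccATGgag
RRAGA: cggcgggtgATGcca
RRAGC: tccagcaccATGtcc
An ATG also lay upstream of the start codon in 3 members, with 1 in LAMTOR1, 2 in LAMTOR3 and 1 in RRAGC, while 50.4% of the tested genes had one.

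All 5 Ragulator mRNAs had their highest level in the light polysomes, and RRAGA and RRAGC had theirs in the heavy polysomes. Of the 7527 tested genes, those whose counts over all pools came to 30 or more, 1.30% had their highest CPM in the free pool, 7.44% in the monosome pool, 30.0% in the light polysomes and 61.3% in the heavy polysomes. Summed, the LAMTOR genes had 113 counts (318 CPM) in the free library, 1221 (919 CPM) in the monosome library, 2371 (1581 CPM) in the light polysome library and 690 (441 CPM) in the heavy polysome library.

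LAMTOR1, the membrane anchor (chromosome 11, 72085895 to 72103387), had 12, 162, 616 and 139 counts from the free to the heavy pool. These are 33.8, 122, 411 and 88.8 CPM, so the light polysome level stood alone, with an interval of 379 to 445 CPM. Of the summed CPM, 62.7% lay in the light polysomes, more than for any of the other 6 members. The gene lies opposite the protein-coding genes LRTOMT (now named LRRC51) and AP000812.5 (now named LRTOMT) over its whole length. The symbol LRTOMT had 30 counts, and which of these genes it covers is not known. The sources used here do not say whether strand was used in counting.

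LAMTOR2 (chromosome 1, 156054752 to 156058510), whose roadblock fold pairs with LAMTOR3, had 53.4, 82.0, 223 and 130 CPM from 19, 109, 334 and 203 counts. It was the Ragulator mRNA with the largest part in the heavy polysomes, 26.6% of its summed CPM. LAMTOR3 (chromosome 4, 99878336 to 99894490), also known as the MEK partner MP1, had only 7, 48, 96 and 32 counts, or 19.7, 36.1, 64.0 and 20.5 CPM. Its free and heavy polysome intervals overlapped, and 2 processed pseudogenes named after it could share its reads.

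LAMTOR4 (chromosome 7, 100148907 to 100155944) had the most counts of the 7, with 36, 541, 794 and 188, or 101, 407, 530 and 120 CPM. LAMTOR5 (chromosome 1, 110401249 to 110407942), its partner in the complex, had 39, 361, 531 and 128 counts, or 110, 272, 354 and 81.8 CPM. In both mRNAs the monosome level was the second highest, and the free and heavy polysome levels were low, with overlapping intervals. LAMTOR5 lies opposite the antisense gene LAMTOR5-AS1 over its whole length and has 1 processed pseudogene named after it. LAMTOR4 lies opposite C7orf43 over 1525 nt.

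RRAGA (chromosome 9, 19049395 to 19050983), which codes for RagA, had 5 counts in each of the free, monosome and light polysome libraries and 188 in the heavy polysome library. That is 14.1, 3.76, 3.33 and 120 CPM, and the heavy polysome interval of 104 to 139 CPM lay above the other 3. The free interval of 4.57 to 32.8 CPM overlapped those of the monosome and light polysome libraries. RRAGC (chromosome 1, 38838198 to 38859823), which codes for RagC, had 0, 3, 20 and 77 counts, or 0, 2.26, 13.3 and 49.2 CPM. Its free interval overlapped those of the monosome and light polysome libraries, while the monosome, light polysome and heavy polysome levels stood apart, each above the one before. RRAGC shares 20491 nt of its span with AL139260.2, a processed transcript on the same strand, whose reads there cannot be told apart by strand. A count of 0 in the free library allows up to 3 counts, or 8.44 CPM, as a one-sided limit, and the upper end of its two-sided interval is 10.4 CPM.

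**Figure D2:**
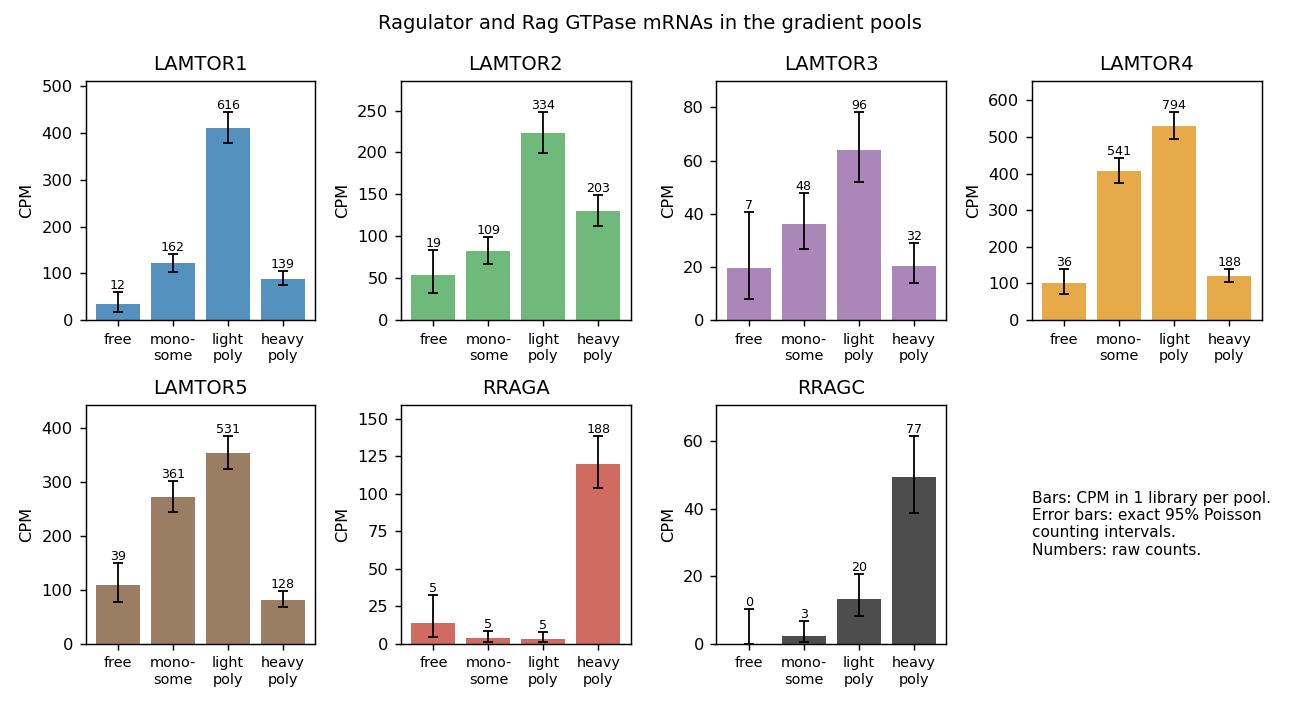
CPM of each member in the free, monosome, light polysome and heavy polysome libraries, 1 library per pool; error bars are exact 95% Poisson intervals, numbers are raw counts, and each panel has its own axis from 0. The LAMTOR genes peak in the light polysomes (64.0 to 530 CPM), and RRAGA and RRAGC in the heavy polysomes (120 and 49.2 CPM).

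Between the light and the heavy polysome library the Ragulator mRNAs and those of RRAGA and RRAGC moved in opposite directions. Ratios are given on a log2 scale relative to the median tested gene, with 0.5 added to each count. Calls of higher or lower needed a distance of at least 2-fold from that gene and an interval that excluded it. All 5 LAMTOR mRNAs were lower in the heavy polysomes, as were 28.3% of all tested genes. RRAGA and RRAGC were higher, as were 26.0%. The other Rag genes did not go with them: RRAGD was lower, at -2.08 (-2.73 to -1.50). RRAGB lay at -0.74 (-1.82 to 0.33) and was not called. LAMTOR1 lay at -2.80 (-3.08 to -2.53), LAMTOR4 at -2.73 (-2.97 to -2.50), LAMTOR5 at -2.70 (-2.99 to -2.42) and LAMTOR3 at -2.22 (-2.86 to -1.65). LAMTOR2 lay nearer the median gene, at -1.37 (-1.63 to -1.11).

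RRAGA lay at 4.45 (3.33 to 6.22), where 11 of the 7527 tested genes, itself included, were as high or higher. The value rests on 5 light polysome counts. RRAGC lay at 1.27 (0.57 to 2.08), above 79.0% of the tested genes. The median of the 7 members was -2.22, and the median gene's own share was 1.51-fold higher in the heavy polysomes. With library totals in place of the median gene, LAMTOR2 lay at -0.78 and was no longer called, and no member changed direction.

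Each pair of members was also compared directly by the ratio of their heavy to light counts, which needs no scaling. In 10 of 10 pairs of a LAMTOR mRNA with RRAGA or RRAGC the interval excluded equality, also when it was widened for 21 pairs. These pairs use the same counts as the calls, so they are not separate evidence. No share over other gene pairs was computed, and RRAGB and RRAGD were not paired with the LAMTOR mRNAs. Within Ragulator, LAMTOR2 differed from LAMTOR1, LAMTOR4 and LAMTOR5. Its heavy to light ratio was 2.56 times that of LAMTOR4 (2.01 to 3.27) and 2.52 times that of LAMTOR5 (1.93 to 3.30), and that of LAMTOR1 was 0.372 times that of LAMTOR2 (0.286 to 0.482). Against LAMTOR3 it was 1.82 times as high (1.16 to 2.92), an interval that included equality once widened. The other 6 LAMTOR pairs could not be told apart at this depth; LAMTOR4 over LAMTOR5 was 0.982 (0.760 to 1.27). RRAGA exceeded RRAGC by 9.68 times (3.37 to 34.2).

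**Figure D3:**
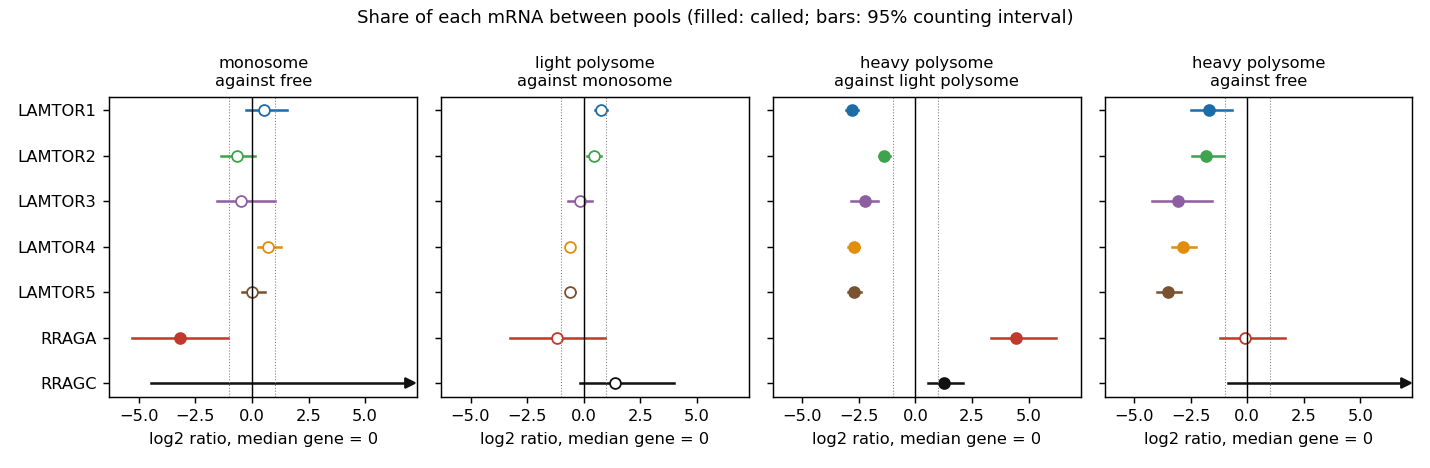
Log2 ratio of shares between pools for each member, with the median tested gene at 0, dotted lines at 2-fold and bars for the 95% counting interval; filled points were called, and RRAGC has no point where the free library had no count. Against the light polysomes the heavy polysomes hold the LAMTOR mRNAs at -2.80 to -1.37 and RRAGA and RRAGC at 4.45 and 1.27.

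From the monosome to the light polysome library no LAMTOR mRNA lay 2-fold or more from the median gene, whose own share was 1.98-fold higher in the light polysomes. No member was called higher, against 14.9% of the tested genes, and none lower, against 16.3%. LAMTOR1 lay at 0.77 (0.52 to 1.03) and LAMTOR2 at 0.45 (0.14 to 0.78), while LAMTOR4 lay at -0.60 (-0.76 to -0.44) and LAMTOR5 at -0.60 (-0.80 to -0.40). LAMTOR3 lay between, at -0.16 (-0.67 to 0.37). The ratio of light polysome to monosome counts was 2.59 times higher for LAMTOR1 than for LAMTOR4 (2.10 to 3.20) and 2.58 times higher than for LAMTOR5 (2.07 to 3.24). For LAMTOR2 it was 2.09 times that of LAMTOR4 (1.63 to 2.69) and 2.08 times that of LAMTOR5 (1.61 to 2.71). In 5 of 10 LAMTOR pairs the interval excluded equality, also when widened. RRAGA and RRAGC, at -1.16 (-3.28 to 0.96) and 1.39 (-0.17 to 3.97), had too few counts for a direction. With library totals, 3 members were called higher (LAMTOR1, LAMTOR2 and RRAGC) and none lower.

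From the free to the monosome library the Ragulator mRNAs likewise lay close to the median gene, from -0.68 for LAMTOR2 (-1.36 to 0.14) to 0.72 for LAMTOR4 (0.25 to 1.27). RRAGA was the 1 member called lower, at -3.17 (-5.29 to -1.05), where 4.57% of the tested genes were lower. No member was higher, against 5.13%. With a minimum of 100 counts, 372 of 4343 genes were lower and 308 higher. Of the 7527 tested genes, 2348 had no free count. The RRAGA value rests on 5 counts in each library. The call was lost with library totals (-1.90) and after thinning all libraries to the shallowest one (-2.06). RRAGC had 0 and 3 counts, and no ratio is given.

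Between the ends of the gradient, all 5 Ragulator mRNAs were lower in the heavy polysomes relative to the median gene. So were 15.3% of the tested genes, and no member was higher, against 6.36%. The share called lower was larger among deeper genes. With a minimum of 100 counts, which all 7 members met, 1012 of 4343 genes were lower and 393 higher. LAMTOR5 lay at -3.48 (-3.996 to -2.91), LAMTOR3 at -3.07 (-4.20 to -1.57), LAMTOR4 at -2.81 (-3.32 to -2.24), LAMTOR2 at -1.80 (-2.45 to -1.004) and LAMTOR1 at -1.70 (-2.50 to -0.66). RRAGA, with 5 counts in the free library, lay at -0.08 (-1.20 to 1.69). RRAGC, at 0 free and 77 heavy polysome counts, had an interval that began at -0.83 with no upper end, and it was not called. For the median gene the rise in share was 8.26-fold, and the directions here are relative to it. That median was taken over the 7527 tested genes, of which 2348 had no free count. For those genes the free side of the ratio was only the value added to each count. Measured by library totals, the share of LAMTOR1 was 2.54-fold higher in the heavy polysomes and that of LAMTOR5 was 0.739 times that in the free library; 4 members were then called higher (LAMTOR1, LAMTOR2, RRAGA and RRAGC) and none lower. With edgeR's TMM scaling 4 members were lower.

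The mean gradient position weights a gene's CPM by 0, 1, 2 and 3 from the free to the heavy polysome library, so that all pools enter. In rising order LAMTOR5 lay at 1.50 ± 0.037 (counting SE), LAMTOR4 at 1.58 ± 0.028, LAMTOR3 at 1.61 ± 0.097, LAMTOR1 at 1.85 ± 0.033, LAMTOR2 at 1.88 ± 0.054, RRAGA at 2.62 ± 0.12 and RRAGC at 2.73 ± 0.054. The median tested gene lay at 2.25. Neighbours in this order differed beyond counting error between LAMTOR3 and LAMTOR1 (0.239, 0.038 to 0.44) and between LAMTOR2 and RRAGA (0.746, 0.487 to 1.00). The remaining neighbours did not, among them LAMTOR5 and LAMTOR4 (0.078, -0.013 to 0.169). Of all 21 pairs of members, LAMTOR4 and LAMTOR5 had the most alike profiles over the pools, at a distance of 0.0468 (the absolute differences between profile shares, summed and divided by 2). LAMTOR2 and LAMTOR3, the other pair within the complex, were 0.120 apart, and LAMTOR1 and RRAGA were furthest apart at 0.763. LAMTOR3 lay nearer to LAMTOR5 (0.0749) and LAMTOR4 (0.095) than to LAMTOR2. No counting interval was computed for these distances.

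Short mRNAs in general lay nearer the light end. Across 7464 tested genes with a coding length, the Spearman rho between coding length and the heavy to light ratio was 0.325, given as a description since all points share the same libraries. The 1041 genes of 101 to 200 codons had a median heavy to light value of -1.38, with 62.3% of them called lower, and the 210 genes of up to 100 codons had -2.62, with 95.7% lower. In their classes LAMTOR2 stood above 50.3% of the genes and LAMTOR4 above 42.4%, near the middle. LAMTOR3 stood above 24.2%, LAMTOR5 above 13.8% and LAMTOR1 above 12.5%. These ranks rest on the principal transcripts. LAMTOR4 has 99 codons there and up to 137 in other coding transcripts, a length in the class of 101 to 200. Other coding transcripts had as few as 79 codons for LAMTOR5, 95 for LAMTOR2 and 99 for LAMTOR1. Those lengths fall in the class of up to 100 codons, whose median was -2.62. The counts do not separate transcripts, so the effect of these forms on the ranks was not tested. The 1275 genes of 301 to 400 codons had a median of 0.47 (36.1% called higher), and there RRAGC stood above 69.9% and RRAGA above 99.8%.

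**Figure D4:**
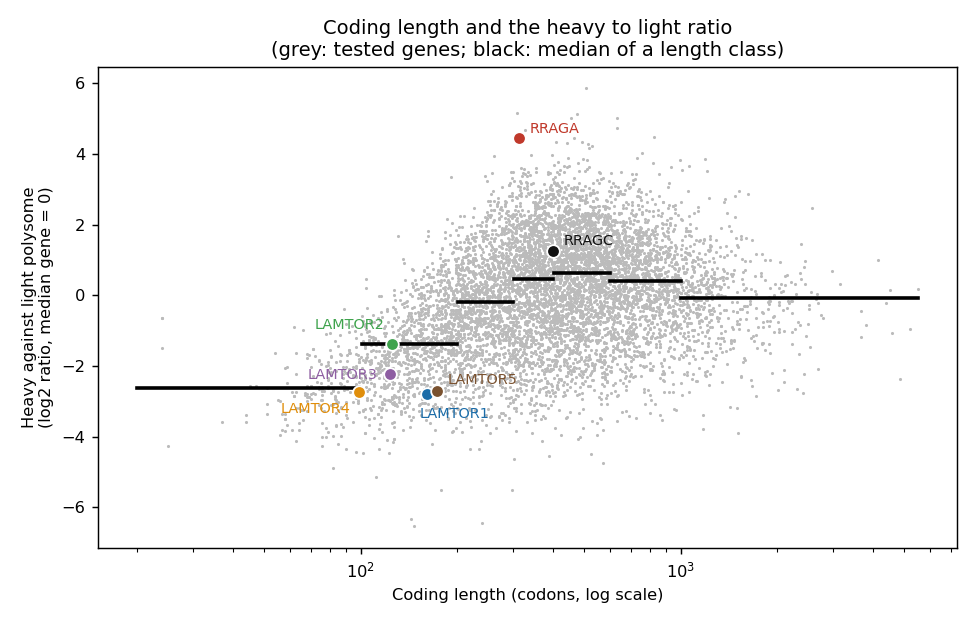
Heavy against light polysome log2 ratio, with the median tested gene at 0, against coding length in codons on a log axis; grey points are 7464 tested genes, black lines are medians of length classes and coloured points are the members. LAMTOR4 and LAMTOR2 lie near the medians of their length classes, -2.62 and -1.38. LAMTOR1, LAMTOR3 and LAMTOR5 lie below their class median of -1.38, and RRAGA lies above 99.8% of the genes of 301 to 400 codons.

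RRAGB and RRAGD, the paralogues of the Rag members, were not among the 7. RRAGB had 0, 5, 17 and 16 counts from the free to the heavy pool, and RRAGD had 1, 23, 87 and 32. Both had their highest CPM in the light polysomes, though for RRAGB the light and heavy polysome intervals overlapped. Within the RagC and RagD pair, of nearly the same coding length (399 and 400 codons), the heavy to light ratio was 10.3 times higher for RRAGC than for RRAGD (5.30 to 20.9). RRAGD lay at -2.08 (-2.73 to -1.50) in heavy against light polysomes, below the median gene like the LAMTOR mRNAs. For RRAGA it was 38.5 times higher than for RRAGB (11.8 to 152), which had few counts. The coding sequences of RRAGA and RRAGB are 84.2% identical, with a longest shared run of 32 nt, and those of RRAGC and RRAGD 73.4%, with 21 nt. The sources used here do not say how reads with more than 1 alignment were counted.

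The mRNAs with the most similar profiles were named by a rule: the 3 nearest of 4336 other genes with at least 100 counts, over the 4 pools. Nearest to the summed LAMTOR profile was UBL5, a ubiquitin-like protein of 73 codons (distance 0.0104), with BEX3 (0.0194) and UQCRHL (0.0317) after it. For single members, PCBD1 (104 codons) was nearest to LAMTOR5 at 0.00747, the copper chaperone ATOX1 (68 codons) to LAMTOR4 at 0.0116, CIAO2B to LAMTOR2 at 0.0142, MMP24OS to LAMTOR1 at 0.0205 and COA6 to LAMTOR3 at 0.0264. Longer mRNAs were also among the 3 nearest to LAMTOR members. They were PRMT2 (433 codons) for LAMTOR4 at 0.0126 and ADIPOR1 (375) for LAMTOR3 at 0.0266. CA5B (317) for LAMTOR5 and ZNF771 (317) for LAMTOR2 were the others. RRAGC was closest to B3GALNT2 (0.00776). RRAGA had no neighbour as close: the arginase ARG2 was nearest at 0.0446, followed by the chaperone DNAJA1 at 0.0557 and the lysosomal protease CTSL at 0.0581. The RRAGA profile rests on 5 counts in each of the free, monosome and light polysome libraries, and the distances have no counting interval.

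The rest of the nutrient-sensing pathway, taken from lists of genes, was spread on both sides. Of 48 tested genes in these lists, 15 were higher and 13 lower in heavy against light polysomes, shares close to the 26.0% and 28.3% of all tested genes, with a median of 0.15 against 0 for all tested genes. Those on the light side included RHEB, the small GTPase that activates mTORC1 on the lysosome. With 75.9, 411, 405 and 124 CPM from the free to the heavy pool it lay at -2.30 (-2.54 to -2.06), and at a gradient position of 1.57, close to LAMTOR4. MLST8, an mTORC1 subunit, lay at -1.82 (-2.02 to -1.63). TBC1D7, of highest position in that list among genes with at least 100 counts, lay at -0.97 (-1.375 to -0.56) and was not called. In the list of mTORC1 and RHEB, 4 of 8 tested genes were lower and none higher.

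The single lists hold few genes, and their calls are read beside 26.0% higher and 28.3% lower over all tested genes. BORC, the complex that binds Ragulator and moves lysosomes, has small subunits, and 4 of 6 tested genes were lower and none higher. Of all genes of 101 to 200 codons, 62.3% were lower. KXD1, the most counted BORC subunit, lay at -3.28 (-3.52 to -3.05) and BLOC1S2 at -3.04 (-3.71 to -2.46). SNAPIN, of highest position among BORC genes with at least 100 counts, lay at -1.21 (-1.515 to -0.92). Of GATOR2, which relays amino acid signals to the Rags, 3 of 5 tested genes were higher and none lower. Among them were SEH1L at 1.51 (1.01 to 2.07) and SEC13 at 1.20 (0.93 to 1.47). Of the list of folliculin and nutrient sensors 5 of 11 genes in the table were tested (SLC38A9, SESN1, SESN2, CASTOR2 and LARS), so folliculin itself was not. Of these 4 of 5 were higher and none lower, with the leucine sensor SESN2 at 1.14 (0.64 to 1.69). Of the 3 tested genes of GATOR1, which turns RagA off, and KICSTOR none was called; NPRL3 lay at -0.46 (-0.97 to 0.05). TFE3, a transcription factor that the Rags recruit to the lysosome, was lower, at -1.33 (-1.83 to -0.86).

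LAMTOR2 and LAMTOR3 also scaffold the MEK and ERK kinases, of whose mRNAs 2 of 4 were higher and none lower. MAP2K1 (MEK1) lay at 2.22 (1.66 to 2.88), MAPK3 (ERK1) at 0.36 (0.05 to 0.67) and MAP2K2 (MEK2) at -0.68 (-0.84 to -0.51). The vacuolar ATPase, the proton pump to which Ragulator binds, was divided, with 6 of 16 tested subunits higher and 4 lower. Over all tested genes 26.0% were higher and 28.3% lower. ATP6AP2 lay at 2.95 (2.12 to 4.04) and ATP6V1F, with 119 codons, at -1.79 (-1.95 to -1.64). The median gradient position was 1.61 over the LAMTOR genes, 1.96 over BORC, 2.07 over mTORC1 and RHEB, 2.18 over GATOR1 and KICSTOR, 2.27 over the vacuolar ATPase, 2.43 over GATOR2, 2.44 over the 4 Rag genes, 2.44 over the MEK and ERK genes and 2.54 over the list of folliculin and nutrient sensors. The 1 tested MiT/TFE factor, TFE3, lay at 2.151 and the median of all tested genes at 2.25.

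**Figure D5:**
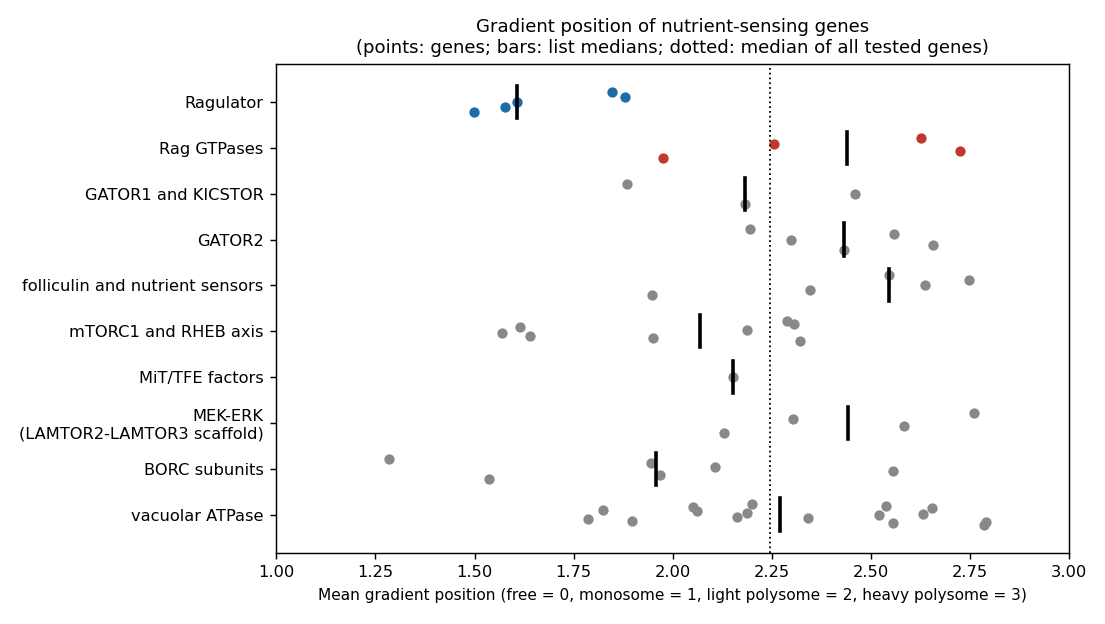
Mean gradient position (free 0 to heavy polysome 3) of each tested gene of the nutrient-sensing lists, with black bars for list medians and a dotted line for the median of all tested genes, 2.25. The LAMTOR genes lie at 1.50 to 1.88, and the Rag genes range from 1.98 for RRAGD to 2.73 for RRAGC.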

How the data were processed

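The authors' deposited table gives raw counts per gene symbol, whole numbers without scaling, for 4 libraries (1 per gradient pool). The submitters' processing notes name the hg38 build, featureCounts, Subread 1.6.2 and minimap2 2.15, with no settings or roles. Not given in the sources used here are the annotation release, the strand setting and the handling of reads with several alignments. The members and gene lists were chosen with earlier results of these data known.

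From the counts, CPM and log2 ratios of shares (0.5 added) with exact conditional binomial (Clopper-Pearson) intervals were computed for all genes with at least 30 counts, 7527 in number. Exact Poisson intervals were computed for the members, RRAGB and RRAGD. Exact conditional intervals of count ratios were computed for pairs of these genes. The interval method was tested on simulated data. No replicate test could be fitted, because 1 library per pool leaves no residual degrees of freedom. Transcript features came from GENCODE release 29, start windows from RefSeq. Named genes are the members, RRAGB and RRAGD, and for each list the genes of highest and lowest position and the most counted gene (at least 100 counts). Of the 3 nearest profiles per member, the nearest is always named and the others in part. Depth limits the free library most: 3 counts there are 8.44 CPM, against 1.92 CPM in the heavy polysome library. Alternatives were other count minimums, a pseudocount of 1, library totals, totals without ribosomal protein genes, edgeR 4.0.16 TMM and DESeq2 1.42.0 scaling, thinning, and other position weights. Python 3.11.15, numpy 2.4.6, pandas 2.3.3, scipy 1.17.1 and R 4.3.3 were used.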

Additional observations from a re-analysis of the deposited data

How the results depend on the processing

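In heavy against light polysomes all members kept their direction under every alternative in which they were tested; RRAGC fell below 30 counts after thinning, which left 1 member higher and 5 lower. The median of the members there was -1.63 with library totals. The other comparisons depend on the scaling and on how many shallow genes set the median. For heavy polysome against free, library totals gave a median of 1.25, with 4 members higher and 0 lower; LAMTOR1, LAMTOR2 and LAMTOR4 turned to 1.34, 1.25 and 0.23. Totals without 87 ribosomal protein genes (paralogues included) gave a median of 0.04, with 2 higher and 1 lower; LAMTOR1 and LAMTOR2 turned to 0.14 and 0.04. With every gene of at least 1 count the median was -0.67, with 1 higher and 3 lower. For monosome against free, members called higher numbered 2 at a minimum of 1 count, 1 with a pseudocount of 1, 3 with library totals, 1 with TMM and 2 without ribosomal protein genes; members called lower numbered 0 with library totals and 0 after thinning. The median there, -0.36, is the value of RRAGC, which had no free count, and was -0.23 without it. For light polysome against monosome, library totals gave a median of 0.82 and 3 members higher, totals without ribosomal protein genes 2, a minimum of 1 count 1, and thinning 1. The median gradient position of the members was 1.85, 2.88 with weights of 0, 1, 3 and 6, and 1.95 without the free library, where RRAGA (2.92) passed RRAGC (2.73) and LAMTOR5 passed LAMTOR4 (1.73 each).

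Over all tested genes the split of higher against lower calls was 479 against 1152 in heavy polysome against free, 1239 against 860 with TMM, 1047 against 921 with DESeq2 and 5458 against 227 with library totals. In heavy against light polysomes it was 1959 against 2131, 2024 against 2058 with TMM and 2958 against 1349 with library totals. In monosome against free it was 386 against 344, 666 against 211 with TMM, 574 against 245 with DESeq2 and 2048 against 60 with library totals. In light polysome against monosome it was 1125 against 1226, 1353 against 1048 with TMM and 3310 against 278 with library totals. The cause of these shifts was not tested. No paired analysis was possible because each pool has 1 library.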
